A study of Mus musculus with 7 samples.

Results

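Of 8452 strong H3K27ac promoter peaks in mouse embryonic stem (ES) cells, 833 (9.86%) kept nearly the same scaled count while NeuroD1 was switched on. These stable peaks made up 5.07% of the 16421 promoter peaks and 1.25% of the 66841 merged peaks, and 1012 protein-coding genes had such a peak. A promoter peak reached to within 2 kb of a protein-coding transcription start site (TSS, GENCODE M21, mm10), and a strong one had a mean raw count of at least 100. A peak was called stable when the highest of its 6 scaled counts was at most 1.3 times the lowest. A scaled count is the read count divided by the total of its library and multiplied by the mean total. It is thus a share of the reads, and a rise or fall of H3K27ac common to all peaks would not be seen in it. The peaks were chosen by their 6 scaled counts and mean raw count, so these levels and fold changes are given below as a description. The other 7619 strong promoter peaks served as the comparison.

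H3K27ac is an acetylation of histone H3 that is laid down by the acetyltransferases p300 and CBP, removed by histone deacetylases and bound by bromodomain proteins. It marks active promoters and enhancers. Promoters of genes that every dividing cell uses, such as those for ribosomal proteins and histones, usually carry it in many cell types, while enhancers often gain or lose it as a cell changes its state.

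All libraries came from A2Lox ES cells, grown on gelatin without feeders in medium with serum and LIF, that carry an HA-tagged NeuroD1 transgene under a doxycycline-inducible promoter. NeuroD1 is a bHLH transcription factor that promotes neuronal differentiation. The 0 h cells received no doxycycline, and the 12 h and 48 h cells received 500 ng per ml of it for those times. Each time had 2 replicates, named R1 and R2. No source says that R1 and R2 were separate cultures, so p-values measure the spread between these libraries, which may be technical. All 10 ES cell markers examined had a promoter peak, and of 6 feeder fibroblast markers Col1a1 alone had one, with a mean scaled count of 10.4. A promoter peak was also present at 7 of 8 neuron markers, so its presence alone does not separate ES cells from neurons.

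Libraries held from 6283103 to 8112895 reads in merged peaks, of which between 7.41% and 7.92% fell in the stable peaks. The libraries of 12 h and the first library of 48 h (48 h R1) stood apart in the other strong promoter peaks. There the median level was 80.5% and 79.8% of the mean of the peak at 12 h and 122% in 48 h R1, against 101% in 48 h R2. These departures moved with GC content. Among all strong promoter peaks the median log2 fold change at 12 h vs 0 h ran from 0.17 in peaks under 45% GC to −0.62 in peaks of at least 58% GC. The part of base composition in which peaks were stable was not tested.

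The promoters of 5 of the 6 peaks with the lowest ratio of highest to lowest scaled count are printed because they carry the steadiest signal, with those of Susd6 and of the divergent pair Hspd1 and Hspe1, which were chosen after their values were seen and are described further on. Each sequence is read from mm10 on the strand of the gene, 5′ to 3′, and holds the 250 bases before the TSS and the first 50 bases from it, 300 in all. Capitals mark matches, on either strand, to 12 short motifs. These were GCATGCG (NRF1), CCGGAAG (ETS factors), AAGATGG (YY1), GGGCGG (GC box), CCAAT (bound by NF-Y, the CCAAT box), TGACGTC (CRE), ACTACAA (ZNF143), TATAAA (bound by TBP, the TATA box) and 4 forms of the E-box. Of these, CAGATG is one that proneural factors such as NeuroD1 bind, while CAGCTG is another such form. The form CACGTG is bound by Myc and TFE factors, and CACCTG by E proteins and Snail factors.
Klf3 (chr5:64812089-64812388, plus strand): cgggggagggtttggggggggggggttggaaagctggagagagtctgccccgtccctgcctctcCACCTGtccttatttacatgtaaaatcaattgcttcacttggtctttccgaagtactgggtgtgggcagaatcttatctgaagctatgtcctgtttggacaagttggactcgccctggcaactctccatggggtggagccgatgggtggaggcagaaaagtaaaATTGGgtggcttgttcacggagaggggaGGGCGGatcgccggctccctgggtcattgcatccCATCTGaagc
Tfe3 (chrX:7763837-7764136, plus strand): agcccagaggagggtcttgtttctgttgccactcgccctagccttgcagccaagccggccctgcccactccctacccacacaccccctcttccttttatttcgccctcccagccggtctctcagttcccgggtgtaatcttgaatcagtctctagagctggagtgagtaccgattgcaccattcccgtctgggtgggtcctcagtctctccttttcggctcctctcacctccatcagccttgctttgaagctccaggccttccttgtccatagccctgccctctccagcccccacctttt
Mpdu1 (chr11:69662593-69662892, minus strand): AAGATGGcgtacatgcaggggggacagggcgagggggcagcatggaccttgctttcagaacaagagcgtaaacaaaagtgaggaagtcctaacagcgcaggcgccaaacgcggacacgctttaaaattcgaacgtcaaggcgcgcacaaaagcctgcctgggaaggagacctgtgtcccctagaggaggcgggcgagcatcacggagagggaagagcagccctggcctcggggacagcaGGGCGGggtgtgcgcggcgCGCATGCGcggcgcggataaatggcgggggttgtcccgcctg
Ccnf (chr17:24251360-24251659, minus strand): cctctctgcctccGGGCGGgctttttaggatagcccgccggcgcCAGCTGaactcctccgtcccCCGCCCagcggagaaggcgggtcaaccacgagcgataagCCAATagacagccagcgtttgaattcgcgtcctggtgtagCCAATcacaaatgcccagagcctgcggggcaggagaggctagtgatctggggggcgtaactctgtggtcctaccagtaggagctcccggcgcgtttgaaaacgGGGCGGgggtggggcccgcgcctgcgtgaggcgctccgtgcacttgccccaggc
Znfx1 (chr2:167062966-167063265, minus strand): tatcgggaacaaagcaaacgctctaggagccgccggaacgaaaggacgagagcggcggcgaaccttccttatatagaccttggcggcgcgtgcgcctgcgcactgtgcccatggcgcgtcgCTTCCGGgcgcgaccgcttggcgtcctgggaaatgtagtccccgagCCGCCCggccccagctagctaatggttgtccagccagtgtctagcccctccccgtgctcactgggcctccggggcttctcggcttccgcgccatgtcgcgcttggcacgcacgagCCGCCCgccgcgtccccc
Susd6 (chr12:80790309-80790608, plus strand): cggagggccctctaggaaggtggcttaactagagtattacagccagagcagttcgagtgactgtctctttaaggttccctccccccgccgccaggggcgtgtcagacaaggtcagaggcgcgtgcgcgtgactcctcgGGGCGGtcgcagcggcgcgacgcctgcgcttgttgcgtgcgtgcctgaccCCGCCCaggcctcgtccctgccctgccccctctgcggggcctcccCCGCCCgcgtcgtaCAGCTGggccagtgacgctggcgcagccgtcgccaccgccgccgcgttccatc
Hspd1 and Hspe1 (chr1:55087975-55088274, minus strand): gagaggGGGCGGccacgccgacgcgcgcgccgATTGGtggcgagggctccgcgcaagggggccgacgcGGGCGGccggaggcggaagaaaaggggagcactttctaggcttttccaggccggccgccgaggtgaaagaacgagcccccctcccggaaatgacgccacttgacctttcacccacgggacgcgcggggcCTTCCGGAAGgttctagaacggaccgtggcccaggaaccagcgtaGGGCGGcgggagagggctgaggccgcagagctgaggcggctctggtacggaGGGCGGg

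The Klf3 promoter (56.0% GC in this window) held 4 matches, a CACCTG and a CAGATG E-box, a CCAAT box and a GC box. The Tfe3 promoter held no match. The Mpdu1 promoter held a YY1 match, a GC box and overlapping matches to the NRF1 core on both strands just after the start site. Ccnf had 6 matches, with 3 GC boxes, 2 CCAAT boxes and a CAGCTG E-box, and Znfx1 had 2 GC boxes and an ETS match. A match says only that these letters are in the window.

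The steadiest peak was that of Klf3, which encodes a zinc-finger repressor of the Krüppel-like family. It spanned chr5:64801141-64816478, 15338 bp that cover the TSS. Its scaled counts were 3186 and 3192 at 0 h, 3106 and 3157 after 12 h, then 3053 and 3101 after 48 h. The highest library was 1.05 times the lowest, and the libraries of the 3 time points nearly coincided. The log2 fold change was −0.03 ± 0.12 (SE of the edgeR fit over all 6 libraries) at 12 h and −0.05 ± 0.12 at 48 h, each against 0 h.

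Tfe3, a bHLH-leucine zipper factor that controls lysosomal genes, had scaled counts of 700 and 694 at 0 h, 668 and 695 after 12 h, then 686 and 683 after 48 h. Its ratio was 1.05, and 12 h R1 was the lowest library. Also among the 10 steadiest were Mpdu1, which is needed to use mannose-phosphate-dolichol in glycosylation, Ccnf (cyclin F), the RNA helicase gene Znfx1, the ribosome assembly factor Rpf2, a promoter shared by 4930519P11Rik and Zfp341, Ccnb1 (cyclin B1), and Vps54 of a complex that tethers vesicles at the Golgi. Their ratios lay between 1.07 and 1.09. With an offset for GC content the ratios of the 10 steadiest peaks lay between 1.06 and 1.28.

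The peaks with the highest counts were mostly broad. The first was a domain of 33291 bp at Prrc2b (chr2:32151211-32184501), which begins just beyond the nearest TSS and had a mean scaled count of 5202. Its library values were 5379 and 5354 at 0 h, 5322 and 5136 after 12 h, then 4914 and 5108 after 48 h, with the 48 h libraries lowest and a ratio of 1.09. It was followed by Ier2, an immediate early gene (mean 4779, ratio 1.12), and Ctbp2, a corepressor (4671, ratio 1.24). The further 7 were Setd1b, an H3K4 methyltransferase, Irf2bpl, Socs3, the feedback inhibitor of LIF and STAT3 signalling, Klf3, Zfp532, Igf2bp1, an mRNA-binding protein, and the translation initiation helicase Eif4a2, with means between 2795 and 3428. The ratios of these 10 peaks ran from 1.05 to 1.29. Socs3 was lower at 0 h (2894 and 2816) than in every later library (3061 to 3552), without overlap.

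The threshold cut through a continuum. The 5 peaks just inside it, at Fgd1, Atf2, Tsacc and Cct3, Sf3b4 and Ei24, and the 5 just outside, at Pcna, Dcun1d1, Kif22, Pold2 and Exoc7, had ratios between 1.299 and 1.301. Pcna, the sliding clamp of DNA replication, fell outside with counts of 414 and 344 at 0 h, 376 and 386 after 12 h, then 371 and 447 after 48 h, where the replicates of 1 time point differed more than the time points did.

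**Figure D1:**
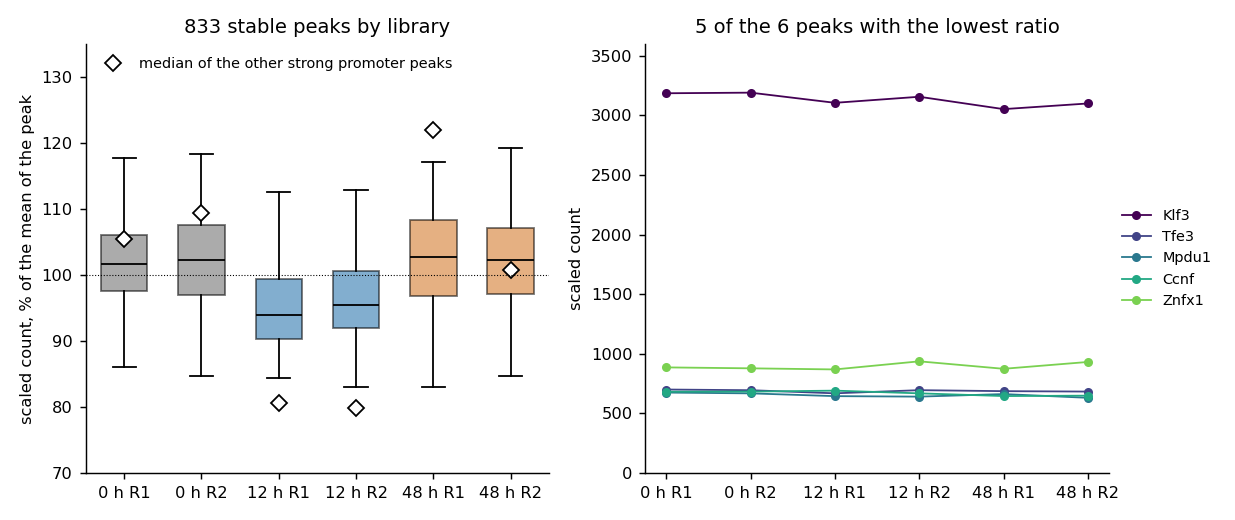
Left, scaled counts of the 833 stable peaks in each library as a percent of the mean of the peak, with boxes at the quartiles, lines at the median and whiskers to the furthest value within 1.5 interquartile ranges. Diamonds give the median of the 7619 other strong promoter peaks, which is 79.8% in 12 h R2 and 122% in 48 h R1. Right, scaled counts of 5 of the 6 peaks with the lowest ratio, which run nearly level from library to library.

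Within the narrow range the rule allows, the median level of the stable peaks was 102% of the mean of the peak in both 0 h libraries, 94.0% and 95.5% in those of 12 h, and 103% and 102% in those of 48 h. The 12 h mean was the lowest of the 3 time points in 548 of the 833 peaks (65.8%), against 82.8% of the other strong promoter peaks. With TMM factors, DESeq2 size factors or the offset on GC content the share among the stable peaks was 56.9%, 61.1% and 64.2%. The order of single libraries moved with the scaling. With TMM factors the median level was 97.7% in 12 h R2 and 97.1% in 0 h R1, and with DESeq2 size factors 98.3% and 97.6%. Both 12 h libraries lay below all others in 324 stable peaks (38.9%) and in 69.8% of the other strong peaks. Replicates also lay closer together. The median absolute log2 ratio of R1 to R2 in the stable peaks was 0.08 for 0 h, 0.07 for 12 h and 0.10 for 48 h, against 0.14, 0.11 and 0.31 in the others, as the rule forces.

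In no comparison was a stable peak called, where a call is an adjusted p under 0.05 in the quasi-likelihood test of edgeR, with p-values adjusted over all merged peaks by the method of Benjamini and Hochberg. The share called among all merged peaks was 16.0% for 12 h vs 0 h (9.93% gained and 6.03% lost), 14.0% for 48 h vs 0 h (8.56% and 5.45%), and 19.1% for 48 h vs 12 h (10.7% and 8.43%). At an unadjusted p under 0.05 there were 6, 2 and 6 stable peaks in the same order, beside 31.7%, 26.9% and 33.6% of all peaks. DESeq2 called 0 stable peaks in each comparison, beside 11.8%, 7.66% and 19.5% of the peaks it gave an adjusted p. Since the rule used these contrasts, nothing is read from the counts. The log2 fold changes spanned −0.34 to 0.33, −0.33 to 0.29 and −0.30 to 0.36, with a median SE of 0.16.

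The count of 0 depended on the 48 h libraries, which share 1 estimate of the spread with the others. When the 0 h and 12 h libraries were fitted alone, 75 stable peaks were called at 12 h, of which 65 lost and 10 gained, beside 32.0% of all peaks. Leaving out 48 h R1 or 48 h R2 gave 77 at 12 h in each case, beside 32.0% and 31.9% of all peaks. Leaving out 48 h R1 also gave 10 stable peaks at 48 h vs 0 h (19.7% of all peaks) and 10 at 48 h vs 12 h (15.1%). Without 48 h R2 these were 17 (23.5%) and 72 (36.8%). With the offset on GC content 29 stable peaks were called for 12 h vs 0 h (21 lost, 8 gained, beside 13.6% of all peaks), none for 48 h vs 0 h (19.8% of all peaks), and 49 for 48 h vs 12 h (45 gained, 4 lost, beside 24.7%).

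The stable peaks were broader and held more reads than the other strong promoter peaks. Their median width was 3439 bp against 2075 bp, their median mean count 525 against 246, and their median density 146 against 122 reads per kb. Counting error falls as the count rises, and its part in which peaks were stable was not tested. The stable share rose from 3.07% of peaks with a mean count of 100 to 200 to 30.2% at 800 to 1600, and was 26.1% at 1600 and over. Within bins of like count, median widths in the stable and the other peaks were 1673 and 1537 bp at 100 to 200 reads, 2402 and 2161 bp at 200 to 400, and 3635 and 3215 bp at 400 to 800. They were 5716 and 5767 bp at 800 to 1600 reads and 11974 and 12518 bp above that.

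The stable peaks were also poorer in G and C. Median GC content was 49.7% against 54.2%. The stable share was 10.3% in peaks under 45% GC, 23.9% in those of 45% to 48% and 0.744% in those of 58% and over. With the offset on GC content, which sets each library level with the others along the GC scale, 1271 peaks met the rule. The shares in those bins were then 20.8%, 16.2% and 9.32%. Of the 833 stable peaks 581 met the rule under that offset too, which is 69.7% of the 833 and 45.7% of the 1271. Close to the start site the difference was smaller. The 300-base windows had a median GC content of 60.3% in stable and 62.7% in other strong peaks, with a ratio of observed to expected CpG of 0.83 and 0.81.

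**Figure D2:**
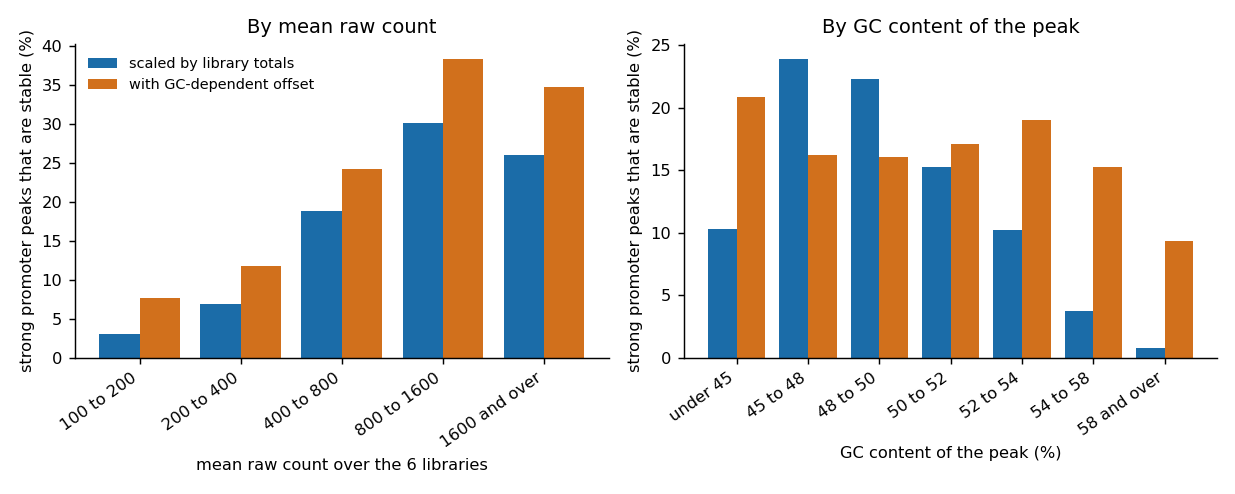
Percent of strong promoter peaks that met the rule, by mean raw count (left) and by GC content of the peak (right), with scaling by library totals (blue) and with the offset on GC content (orange). The share rises with the count under both scalings to 30.2% and 38.4% at 800 to 1600 reads, while its fall with GC content, to 0.744%, is far weaker with the offset (9.32%).

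Most stable peaks covered a start site, with their centres further from it than those of the other strong peaks. The peak covered the TSS nearest to its centre in 793 cases (95.2%), against 92.3% of other strong and 67.7% of all promoter peaks. The median distance from the peak centre to that TSS was 416 bp in stable and 245.5 bp in other strong peaks, beside their greater width. More than 1 protein-coding gene had a TSS in the window in 19.9% of stable and 14.9% of other strong peaks. A divergent pair, with start sites on opposite strands within 1 kb, was present in 11.5% and 9.87%. An example is the promoter of Hspd1 and Hspe1, printed above, which encode the mitochondrial chaperonin and its partner and start 108 bp apart. Its scaled counts were 988 and 1086 at 0 h, 872 and 877 after 12 h, then 986 and 877 after 48 h. The X chromosome held 18 stable peaks, 10.2% of its strong promoter peaks, and chromosome 13, where the largest histone cluster lies, held 45 (15.1%).

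Motif shares are given beside those of the other strong promoters, and the differences were not tested. The GC box was in 64.2% of stable windows, 69.1% of other strong windows and 65.1% of all promoter windows, and the CCAAT box in 40.0%, 37.9% and 37.7%. The ETS match was in 22.9%, 20.5% and 15.6%, and the YY1 match in 11.2%, 8.01% and 6.86%. Among E-boxes, CACGTG, the form bound by Myc, USF and TFE factors, was in 14.0% of stable and 10.1% of other strong windows. CAGATG and CAGCTG, the forms that proneural bHLH factors bind, were in 9.84% and 10.1% of stable windows against 10.4% and 12.9%. By GC content of the window, the shares of CACGTG in stable and other strong windows were 9.30% and 7.67% under 55% GC, 16.6% and 10.3% at 55% to 65%, and 14.6% and 11.2% above that. In the same bins CAGATG was in 11.6% and 15.1%, 12.2% and 12.1%, and 5.47% and 6.50%, and YY1 in 12.6% and 8.51%, 11.9% and 9.04%, and 9.12% and 6.79%. Over the whole peak the median density of CAGATG was 0.58 per kb in stable and 0.51 per kb in other strong peaks. That of CAGCTG was 0.40 and 0.45 per kb.

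Of all genes with a strong promoter peak, 1012 of 9061 (11.2%) had a stable one. This is the background for the gene lists below, which describe families of textbook function by count alone. The median ratio of highest to lowest library was 1.68 over all these genes, each at its promoter peak with the most reads. The offset on GC content raised the background to 16.5%. Read counts differed between the lists. The median scaled count at the strongest promoter peaks was 274 over all genes. It was 667 for ribosomal protein, 697 for histone, 577 for chaperone and 582 for reference genes. For chromatin remodellers it was 663 and for pluripotency genes 1651. The stable share rose with the count, as given above, and the part of the count in the shares of the lists was not tested.

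Genes for ribosomal proteins stood at 50 of 83 (60.2%, in 49 peaks), with a median ratio of 1.28 and 55.4% under the offset on GC content. Among the strongest was the promoter peak of Rps19, a protein of the small ribosomal subunit, with 7376 bp (chr7:24883193-24890568). Its scaled counts were 1399 and 1456 at 0 h, 1247 and 1205 after 12 h, then 1422 and 1302 after 48 h, a ratio of 1.21 with the 12 h libraries lowest. Rpl13, of the large subunit, had a mean scaled count of 1268 and a ratio of 1.27. Of the 82 peaks that were the strongest promoter peak of such a gene, stable or not, none was called at 12 h or 48 h against 0 h, and 3 (3.66%) gained at 48 h vs 12 h. Over the 7799 strongest promoter peaks of all genes, 2.03% gained and 26.7% lost at 12 h, 3.60% gained and 3.09% lost at 48 h, and 38.0% gained between 12 h and 48 h.

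Replication-dependent histone genes, which supply the histones of newly made chromatin, stood at 40 of 65 (61.5%). They lie in clusters, so that these 40 genes shared 15 stable peaks, and how reads that match several near-identical histone genes were counted is not given in the sources used here. A peak of 11921 bp over Hist2h2aa1, Hist2h2aa2, Hist2h3c1 and Hist2h3c2 (chr3:96237006-96248926) had scaled counts of 1899 and 1956 at 0 h, 1858 and 1788 after 12 h, then 1848 and 1863 after 48 h, a ratio of 1.09. A second one covered Hist1h2ag, Hist1h2ah, Hist1h2bj, Hist1h2bk and Hist1h4i (chr13:22033946-22043109), with a mean of 1433 and a ratio of 1.198. Under the offset on GC content 60 of the 65 genes had a stable peak. The median GC content of the list was 45.6%, the lowest of the lists examined.

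Cytosolic and mitochondrial chaperones stood at 8 of 21, among them Hspa8, the constitutive HSP70 (mean 1489, ratio 1.19), Hspa9 and the chaperonin subunits Cct3, Cct4 and Cct7. Translation factors stood at 12 of 59, led by Eif4a2, Eef1a1 and Eef2, and DNA replication factors at 8 of 37, led by the licensing factor Cdt1 (mean 1632, ratio 1.22) and the helicase subunits Mcm5 (740, 1.13) and Mcm7. Cullins and E2 enzymes of ubiquitin conjugation stood at 7 of 37, spliceosome proteins at 8 of 45, subunits of the mitochondrial ribosome at 10 of 68 and of the respiratory chain at 12 of 85. The share of spliceosome genes went from 17.8% to 8.89% under the offset on GC content, below the background there. That of respiratory chain genes was 14.1% in both scalings, above the background of 11.2% and below that of 16.5% under the offset.

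Other families that dividing cells rely on had shares between 0 and 14.3%. Proteasome subunits stood at 2 of 33 (Psmc5 and Psmd1), aminoacyl-tRNA synthetases at 2 of 34 (Aars and Vars), Mediator at 2 of 28 (Med21 and Ccnc) and nuclear pore proteins at 2 of 23. Coat proteins of vesicles stood at 0 of 17. RNA polymerase II and its general factors stood at 5 of 37, ribosome biogenesis factors, led by Npm1, at 5 of 35, and chromatin remodellers, led by Smarcd1, at 4 of 29. Numbered Zfp genes stood at 32 of 275 (11.6%) beside the background of 11.2%. Under the offset on GC content nuclear pore genes went from 8.70% to 21.7% (5 of 23), above the background of 16.5% there. Chromatin remodellers (13.8% and 20.7%), ribosome biogenesis factors (14.3% and 17.1%) and Zfp genes (11.6% and 17.1%) were above the background in both scalings. RNA polymerase II and its general factors (13.5% and 16.2%) were above it without the offset and just below it with the offset.

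**Figure D3:**
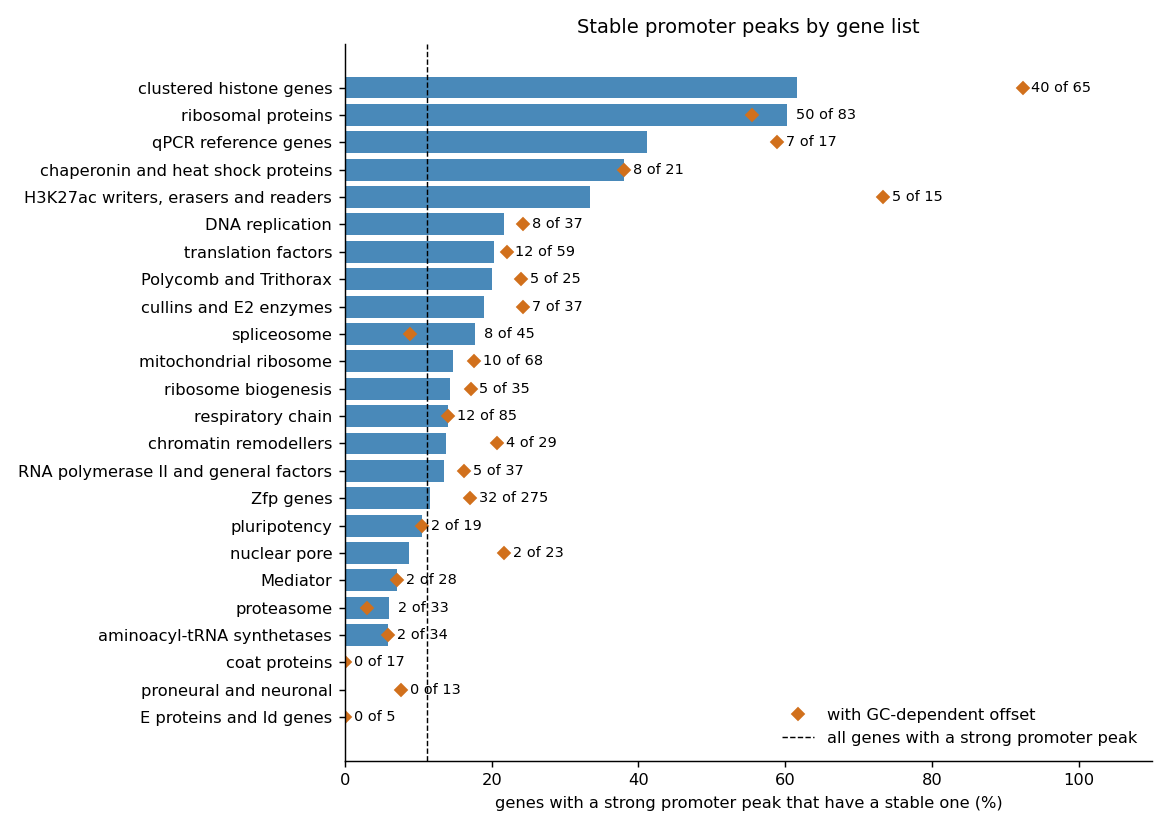
Percent of genes with a strong promoter peak that have a stable one, for 24 gene lists (bars, with the number of genes), and the same percent with the offset on GC content (diamonds). The dashed line at 11.2% is the value over all 9061 genes. Histone and ribosomal protein genes stand at 61.5% and 60.2%, and vesicle coat, proneural and neuronal, and E protein and Id genes at 0.

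Genes often used to normalise expression assays had a stable peak in 7 of 17 cases. Among them were Actb, Eef1a1, Gapdh, Pgk1 and Tfrc. Pgk1, a glycolytic enzyme, was the flattest, with 310 and 328 at 0 h, 307 and 335 after 12 h, then 314 and 329 after 48 h (ratio 1.09). Gapdh, also glycolytic, had 1303 and 1337, then 1060 and 1132, then 1370 and 1201, and so dipped at 12 h within the limit (ratio 1.29). Others were not stable. Tbp, the TATA-binding protein, shares its promoter peak with Psmb1, whose TSS is the nearest. It had 268 and 232 at 0 h, 190 and 218 after 12 h, then 311 and 309 after 48 h (ratio 1.64). The 48 h libraries did not overlap the earlier ones. The peak was not called at 48 h vs 0 h (log2 fold change 0.31, adjusted p = 0.30, edgeR) and gained at 48 h vs 12 h (0.60, adjusted p = 0.027, edgeR). Ywhaz, a 14-3-3 protein, had a ratio of 1.81 and was lost at 12 h vs 0 h by edgeR's test over all peaks (log2 fold change −0.68, adjusted p = 0.0049), a call that ended with the offset on GC content and without 0 h R2, 12 h R1 or 12 h R2 (adjusted p from 0.075 to 0.20 there). Polr2a, the largest subunit of RNA polymerase II, had a ratio of 1.75. Hprt had no promoter peak by the rule used here.

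The enzymes of the mark itself were mixed, with a stable peak in 5 of 15 genes that write, erase or read H3K27ac. The acetyltransferase Kat2b (PCAF) had a domain of 16921 bp with 2487 and 2614 at 0 h, 2676 and 2680 after 12 h, then 2426 and 2571 after 48 h (ratio 1.10). The corepressor subunits Ncor1 and Tbl1xr1 had ratios of 1.13 and 1.23. Hdac1 had a stable smaller peak beside a stronger one with a ratio of 1.63. The strongest promoter peak of Ep300 (p300) had a ratio of 1.40 and that of Crebbp (CBP) 2.75. Crebbp, at 70.5% GC, had 276 in 48 h R1 and 101 in 48 h R2. Under the offset on GC content 11 of the 15 genes had a stable peak.

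Among 25 Polycomb and Trithorax genes 5 had a stable peak, Cxxc1, Dpy30, Eed, Jarid2 and Setd1b. Pluripotency genes had 2 of 19, the factor Sall4 and the TGF-beta family ligand Gdf3. Sall4 had 2728 and 2946 at 0 h, 2415 and 2587 after 12 h, then 2626 and 2313 after 48 h (ratio 1.27). No gene of the proneural and neuronal list (0 of 13) or of the E proteins, the dimer partners of NeuroD1, and their Id inhibitors (0 of 5) had a stable peak. Both lists are short beside a background of 11.2%. Under the offset on GC content 1 of the 13 and 0 of the 5 had one. The median ratios of these lists were 2.93 and 2.31. Id1 and Id2 gained at 48 h vs 0 h, with log2 fold changes of 1.22 and 0.94 (adjusted p = 0.00059 and 0.00037 by edgeR's test). The strongest Tcf12 promoter peak, at 67.5% GC, had a ratio of 2.48, or 1.78 with the offset on GC content. It had 366 in 48 h R1 and 233 in 48 h R2. Tcf12 was not called at 48 h vs 0 h (adjusted p = 0.053, edgeR) and gained at 48 h vs 12 h (adjusted p = 0.0031, edgeR).

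Distal peaks beside the stable promoters changed in part. Distal peaks, which overlap no promoter window, were assigned to the nearest TSS within 100 kb, and the rule made no use of their counts. There were 3550 beside stable promoters. At least 1 distal peak lay beside 673 stable peaks (80.8%), with a median of 3, and beside 339 of these 673 (50.4%) at least 1 distal peak was called in some comparison. Of the other strong promoter peaks 63.1% had a distal peak, and 51.1% of those had a called one, which is close to the share beside stable peaks. At 48 h vs 0 h, 91 stable promoters (13.5% of the 673) had a distal peak that gained, 93 (13.8%) had one that lost and 12 had both. Beside the other strong promoters these shares were 17.2% with a gain and 14.4% with a loss.

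At 48 h vs 0 h, 164 of the 3550 (4.62%) gained and 152 (4.28%) lost H3K27ac. Among all 40633 distal peaks within 100 kb of a TSS the shares were 8.95% and 5.52%, and beside the other strong promoters 8.50% and 5.00%. At 12 h vs 0 h, 8.11% gained and 1.75% lost, against 10.5% and 2.50% of all distal peaks. Beside the other strong promoters 8.93% gained and 2.55% lost. At 48 h vs 12 h, 2.14% gained and 9.13% lost, against 5.39% and 9.64% of all distal peaks, and 5.15% and 8.69% beside the other strong promoters. The share that gained was thus lower beside stable promoters in each comparison, and it was also lower in all 12 alternative settings of each. The difference between the sets was not tested. The shares that lost kept no fixed order, and at 48 h vs 0 h they were below that of all distal peaks in 10 of 12 settings. The levels depended on single libraries, with between 1.27% and 8.39% gained at 48 h vs 0 h over the settings, the lowest without 0 h R2 and the highest without 48 h R1. Median GC content was 47.5% beside stable promoters and 48.9% over all distal peaks, and its part was not tested.

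**Figure D4:**
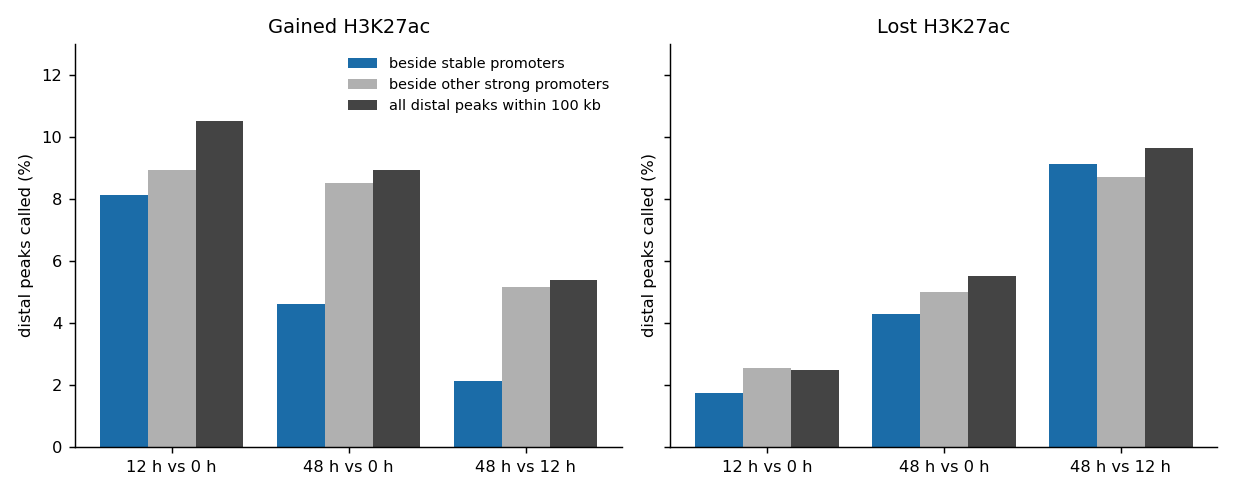
Percent of distal peaks that gained (left) or lost (right) H3K27ac by edgeR's test in each comparison, beside stable promoters (3550 peaks, blue), beside other strong promoters (20224, light grey) and over all distal peaks within 100 kb of a TSS (40633, dark grey). Gains are less frequent beside stable promoters in each comparison, 4.62% against 8.95% of all at 48 h vs 0 h.

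The largest number of called distal peaks lay beside Susd6 and Jarid2, 13 each. The Susd6 promoter peak (chr12:80789668-80793219) covers the TSS printed above and had a ratio of 1.26. All 13 called peaks lay in introns of Susd6, with centres between 7.61 and 73.0 kb from the start site, and 11 of them gained at 48 h vs 0 h while none lost. The strongest (chr12:80809696-80817953, intronic) had scaled counts of 173 and 123 at 0 h, 612 and 559 after 12 h, then 798 and 887 after 48 h. The time points did not overlap. By edgeR's test its log2 fold change was 1.98 ± 0.19 (SE) at 12 h (adjusted p = 1.65e-07) against 0 h. At 48 h it was 2.51 ± 0.19 (adjusted p = 3.70e-09, edgeR).

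Jarid2, a component of Polycomb repressive complex 2, had distal peaks that changed in both directions. Its promoter peak (chr13:44726472-44736968) had 1804 and 1750 at 0 h, 1859 and 1832 after 12 h, then 1513 and 1561 after 48 h, lowest at 48 h but inside the ratio limit (1.23). Of its 13 called distal peaks 5 gained and 1 lost at 12 h, 2 gained and 6 lost at 48 h, each against 0 h, and 9 lost between 12 h and 48 h. The strongest, an intergenic domain 23.9 kb from the start site (chr13:44701010-44712779), had 2027 and 2057 at 0 h, 2749 and 2820 after 12 h, then 1214 and 1672 after 48 h. It was high in both 12 h libraries and low in both 48 h libraries. Its log2 fold change was 0.45 ± 0.15 at 12 h vs 0 h (adjusted p = 0.037, edgeR), −0.50 ± 0.15 at 48 h vs 0 h (adjusted p = 0.023) and −0.95 ± 0.15 at 48 h vs 12 h (adjusted p = 0.0002). The last call held in all 12 alternative settings. The others were lost in 6 and 7 of them, each without any 1 of the 0 h or 12 h libraries (adjusted p from 0.074 to 0.29).

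**Figure D5:**
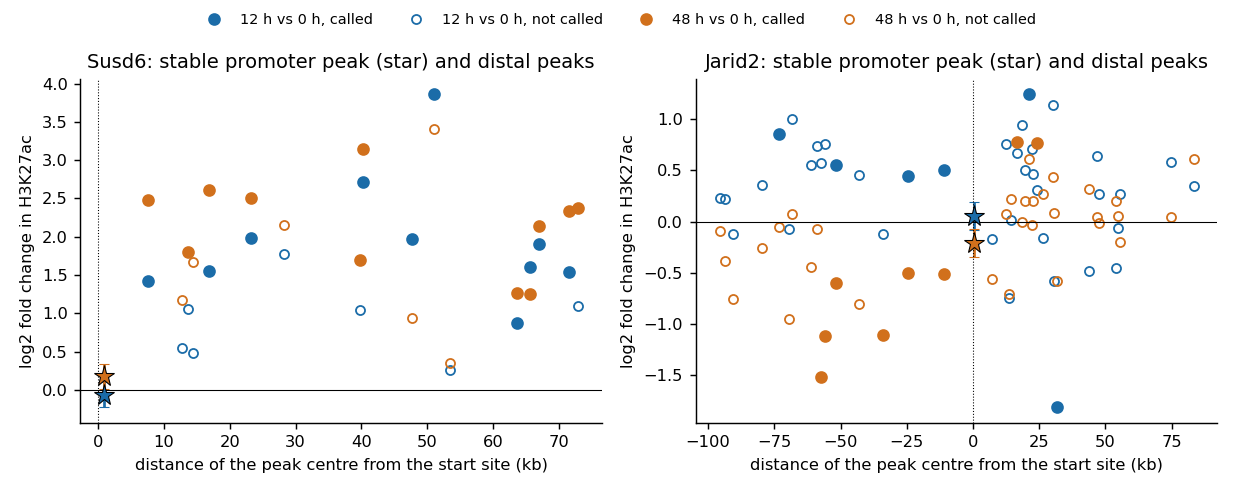
Log2 fold change in H3K27ac of each distal peak against the distance of its centre from the start site of Susd6 (left) and Jarid2 (right), at 12 h (blue) and 48 h (orange) vs 0 h, filled where edgeR called it. Stars with SE bars mark the stable promoter peaks, which the rule keeps near 0, while the called Susd6 peaks lie above and the Jarid2 peaks lie on both sides.

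Ywhaq, another 14-3-3 protein gene, had 12 called distal peaks among 18, all intergenic, of which 8 gained after 12 h and also 8 after 48 h. The strongest (chr12:21436814-21441804) had 290 and 309 at 0 h, 516 and 581 after 12 h, then 301 and 478 after 48 h. It gained at 12 h (log2 fold change 0.87 ± 0.19, adjusted p = 0.0036, edgeR) and was not called at 48 h, where R1 lay at the 0 h level and R2 above it. The 12 h call was lost without either 0 h library or 12 h R2 (adjusted p from 0.081 to 0.11), and without 48 h R1 the peak gained at 48 h too (log2 fold change 0.67). Tgif1, a homeobox corepressor of TGF-beta signalling, had 11 called of 38, with 1 that gained and 6 that lost at 48 h vs 0 h. Its strongest called peak (chr17:70825562-70837368, intergenic) had 2287 and 2294 at 0 h, 2540 and 2607 after 12 h, then 1370 and 1962 after 48 h (−0.46 ± 0.15 at 48 h vs 0 h, adjusted p = 0.040, edgeR). That call was lost in 8 of the 12 settings, among them without 48 h R1, where the log2 fold change was −0.22. BC107364 had 11 called of 40, with 5 that gained and 1 that lost at 12 h vs 0 h, and 3 that gained and 2 that lost at 48 h vs 0 h. Its strongest called peak (chr3:96457223-96459820, intergenic) fell by 0.56 on the log2 scale at 48 h vs 0 h (adjusted p = 0.037, edgeR). This call was lost in 7 of the 12 settings, without any 1 of the 0 h or 12 h libraries among them.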

How the data were processed

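H3K27ac ChIP-seq of A2Lox cells at 0 h, 12 h and 48 h was analysed, with 2 libraries per time point grouped by their sample labels. The Input library was not used. The authors aligned reads to mm10 with Bowtie2, used SAMtools 0.1.19, called peaks with MACS2 against Input, merged them over samples and deposited raw read counts per merged peak, made with QuasR, without scaling. Counts were used as deposited, and library totals in merged peaks, 6283103 to 8112895 reads, set the precision. Tests used glmQLFit and glmQLFTest of edgeR 4.0.16 (R 4.3.3), with 1 model for all 6 libraries and their totals as offset (biological coefficient of variation 14.9%, 3 residual degrees of freedom). The test was tried on simulated data. Alternatives were TMM factors, DESeq2 1.42.0, a filter of 10 counts in 2 libraries, a replicate block, the 4 libraries compared, single libraries left out, other thresholds, and an offset on GC content, a lowess curve (span 0.3, pseudocount 8) per library.

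Genes came from the GENCODE M21 basic set and sequences from the GRCm38.p6 genome (mm10). A peak carries the gene whose TSS is nearest to its centre. Named were the 10 strongest and the 10 steadiest peaks, 5 on each side of the threshold, the 3 strongest stable peaks per list, the lists of reference genes, H3K27ac enzymes and E proteins with Id genes, and the 5 genes with the most called distal peaks. A few genes that this rule names are not reported here. The members and lists were chosen with earlier results of these data known.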

Additional observations from a re-analysis of the deposited data

Results flagged for a closer look

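The changes at 12 h and at 48 h differed beside stable promoters by edgeR's test of 48 h vs 12 h. Of the 3550 distal peaks there, 76 (2.14%) gained and 324 (9.13%) lost between these times, against 5.39% and 9.64% of all distal peaks, so the share that lost was near that of all. Among the strongest called distal peaks, the log2 fold change was −0.95 for that of Jarid2 (adjusted p = 0.0002), −0.63 for that of Tgif1 (adjusted p = 0.0059, edgeR) and 0.53 for that of Susd6 (adjusted p = 0.033, edgeR). The Tgif1 call was lost without either 12 h library, and the Susd6 call was lost without any 1 of the 0 h or 12 h libraries and when the 4 libraries compared were fitted alone.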

How the results depend on the processing

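The limit on the ratio moved the size of the set most. TMM factors, DESeq2 size factors, a mean count of at least 50 or 200 and a window of 1 kb gave between 718 and 866 stable peaks. The offset on GC content gave 1271, a ratio of at most 1.2 gave 273 and a ratio of at most 1.5 gave 2483. With 1 library left out there were 951 to 1411, the most without 48 h R1. Membership moved with the scaling even where the size did not. Of the peaks stable with library totals, 660 (79.2%) also met the rule with TMM factors and 613 (73.6%) with DESeq2 size factors. They made up 82.3% of the 802 peaks stable with TMM factors and 85.4% of the 718 with DESeq2 size factors. The range over 5 libraries is by construction no wider than over 6 at like totals. Where a group is left with 1 library, that library is assumed to vary like the other groups.

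Stable peaks called at 12 h vs 0 h went from 0 to 75 with the 4 libraries compared and to 29 with the offset on GC content, and at 48 h vs 12 h to 49 with that offset. With 1 library left out they ranged from 0 to 77, 0 to 17 and 0 to 72 for 12 h vs 0 h, for 48 h vs 0 h and for 48 h vs 12 h. Distal peaks beside stable promoters that gained were 288, 164 and 76 for 12 h vs 0 h, for 48 h vs 0 h, then for 48 h vs 12 h. DESeq2 gave 179, 96 and 33. The 4 libraries compared gave 546 for 12 h vs 0 h and 47 for 48 h vs 12 h, and the offset on GC content 168 at 48 h vs 12 h. Leaving out 1 library gave 49 to 548, 45 to 298 and 6 to 174. Those that lost were 62, 152 and 324. DESeq2 gave 7, 46 and 199, the 4 libraries compared 223, 74 and 199, and the offset on GC content 157 for 12 h vs 0 h and 310 for 48 h vs 0 h. Leaving out 1 library gave 1 to 224, 19 to 463 and 59 to 741. The shares over all distal peaks moved as well, with 2.24% to 17.7%, 2.54% to 11.9% and 0.765% to 9.64% gained over the settings, and 0.0935% to 7.88%, 0.571% to 12.3% and 1.80% to 19.996% lost. The cause was not tested.

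The labels number the replicates. Between libraries of the same number, the correlations of deviations from the group means were −0.04, −0.09 and 0.11. With 2 libraries per time each deviation rests on 1 library, so these values cannot show whether libraries of the same number shared a culture or batch. The replicate block left 0 stable peaks called in each comparison and gave 299, 168 and 81 distal peaks that gained and 73, 159 and 342 that lost. Among the named peaks 1 direction turned. The strongest called distal peak of Tgif1 was at −0.018 at 12 h vs 0 h with the offset on GC content, and uncalled in both fits. Of the other values for named peaks, 178 kept their side of the threshold, 59 fell short of it and 2 newly passed it.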

Other observations

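Genes with a stable promoter peak had 425 further promoter peaks, at other start sites or at other places in the window, of which 134 were strong. Of these 425 peaks 19 gained and 34 lost H3K27ac at 12 h vs 0 h, 15 gained and 12 lost at 48 h vs 0 h, and 35 gained and 19 lost at 48 h vs 12 h by edgeR's test. As shares these are 4.47% and 8.00%, 3.53% and 2.82%, and 8.24% and 4.47%, beside 2.40% and 17.0%, 4.87% and 2.87%, and 27.4% and 2.61% of all promoter peaks. Hdac1 is an example in which the stable peak was not the strongest promoter peak of the gene.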
